A study of Mus musculus with 10 samples.

Results

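The Kruppel-like factors (KLFs) described here are Klf2, Klf3, Klf4, Klf6, Klf7, Klf10, Klf11, Klf12 and Klf13, taken as the rows of those symbols in the count files. They are 9 of 48321 gene symbols. RNA-seq was measured in 10 libraries of splenic CD4+ T cells from C57BL/6 mice, in 5 groups of 2 libraries each. The cells were sorted by CD25, the IL-2 receptor alpha chain, and by GFP driven from the Foxp3 locus, which is read here as FoxP3. WT mice gave FoxP3+CD25+ and FoxP3-CD25- cells, and Satb1 F/F; Thpok-cre mice (KO) gave FoxP3+CD25+, FoxP3+CD25- and FoxP3-CD25- cells. No group was treated, all carried the reporter, and the mice of the study were adults of mixed sexes. Thpok-cre acts in cells committed to the CD4 lineage, before Foxp3 is switched on, so every KO population derives from cells in which the cre was active. FoxP3+CD25+ cells are regulatory T cells (Tregs) by these markers and FoxP3-CD25- cells are conventional T cells. FoxP3+CD25- libraries came from KO mice alone, so in their comparison with WT cells genotype and gate cannot be told apart. These are bulk libraries, in which fewer cells of a type and less RNA per cell cannot be told apart.

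Reads counted on genes were 6094952 to 12410064 per library (median 7721649), and a gene with 3 counts would stand at 0.242 to 0.492 CPM, the count scaled to a common library size. The marker genes fitted the gates. Foxp3 was at 618 to 739 CPM in the 4 Treg libraries, 361 and 318 in KO FoxP3+CD25-, and 18.0 to 38.9 in the conventional libraries, while Il2ra was at 627 to 760, 16.8 and 16.7, and 1.55 to 11.4 CPM. Satb1, the gene targeted in the KO, was at 379 and 478 CPM in WT and 598 and 534 CPM in KO Tregs. It was at 818 and 881 CPM in WT and 841 and 682 CPM in KO conventional cells. Its highest values were in KO FoxP3+CD25- cells, at 1186 and 993 CPM. The count is summed over all exons of the gene, whether deleted or kept, so it does not check the genotype, and KO below means the libraries so labelled. Both WT libraries numbered 1 held 14487 and 16362 counts of Xist, the RNA of the inactive X chromosome, and 0 counts of the Y-linked genes Ddx3y, Eif2s3y, Kdm5d and Uty. The other 8 held at most 4 counts of Xist and at least 3039 of those genes, so WT number 1 differed from the rest in sex, and the calls that change without it are given with and without it.

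KLFs are transcription factors that bind CACCC and GC-rich boxes through zinc fingers at the C terminus, as do the related Sp factors. What differs is the N-terminal part: Klf2, Klf4, Klf6 and Klf7 carry activation domains, Klf3 and Klf12 recruit the corepressor CtBP, and Klf10, Klf11 and Klf13 bind the Sin3 corepressor. In T cells Klf2 is known for holding naive cells quiescent and for driving S1pr1, the receptor by which they leave lymphoid organs, and Klf10 and Klf11 were first described as genes induced by TGF-beta.

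The 9 genes lie on 9 chromosomes and are given here with their GENCODE coordinates on mm10 (GRCm38). On the plus strand are Klf2 (chr8:72319033-72321656), Klf3 (chr5:64803388-64832901), Klf6 (chr13:5861482-5870394) and Klf11 (chr12:24651274-24662789). On the minus strand are Klf4 (chr4:55527143-55532466), Klf7 (chr1:64029447-64122282), Klf10 (chr15:38291463-38300706), Klf12 (chr14:99870632-100284679) and Klf13 (chr7:63886351-63938915).

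The promoters of the members are shown for Klf2, Klf4 and Klf13, the factors that head the results below. They are taken from RefSeq on GRCm38.p6, 5′ to 3′ on the strand of the gene, and end before the first annotated transcript base. Capitals mark the GC box GGGCGG, the box CACCC and the site named MEF2, each searched on both strands.
Klf2 (chr8:72318812-72319032, plus strand): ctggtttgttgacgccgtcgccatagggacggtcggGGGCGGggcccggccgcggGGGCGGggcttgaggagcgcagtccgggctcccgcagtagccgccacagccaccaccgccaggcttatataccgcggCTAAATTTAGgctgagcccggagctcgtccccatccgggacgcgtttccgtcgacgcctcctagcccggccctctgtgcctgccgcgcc
Klf4 (chr4:55532476-55532725, minus strand): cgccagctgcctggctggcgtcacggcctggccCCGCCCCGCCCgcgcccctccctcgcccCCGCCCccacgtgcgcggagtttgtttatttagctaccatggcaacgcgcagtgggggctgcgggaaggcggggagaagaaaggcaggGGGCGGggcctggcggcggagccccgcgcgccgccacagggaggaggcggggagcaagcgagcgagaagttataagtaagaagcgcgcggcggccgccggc
Klf13 (chr7:63938916-63939165, minus strand): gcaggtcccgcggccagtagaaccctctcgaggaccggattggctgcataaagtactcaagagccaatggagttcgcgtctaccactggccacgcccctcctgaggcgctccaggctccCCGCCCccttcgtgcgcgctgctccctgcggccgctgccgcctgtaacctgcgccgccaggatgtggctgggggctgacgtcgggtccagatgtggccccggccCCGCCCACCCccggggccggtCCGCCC

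RefSeq held a promoter for 8 members and none for Klf10. In the 250 bases before the RefSeq start, Klf2 had 1 CACCC and 2 GGGCGG boxes, Klf4 had 4 GGGCGG boxes and no CACCC, and Klf13 had 1 CACCC and 3 GGGCGG boxes, of which 1 pair overlapped. The 1 CACCC box of Klf2 lies in the bases left out of the sequence above because GENCODE places a transcript start before it. The most boxes were in Klf3, with 5 CACCC and 6 GGGCGG. The windows of Klf3, Klf6 and Klf11 also run past the GENCODE start of their genes, and those of Klf7 and Klf12 lie wholly inside theirs. Klf2 alone among the 8 held the MEF2 match, which starts 118 bases before the RefSeq start (position -118). Of all 32851 promoters of that length, 52% held CACCC, 32.7% held GGGCGG and 2.92% held MEF2. These shares are not matched for GC content. Its median was 52.4% over all promoters, against 71.2% in Klf2, 74% in Klf4 and 71.6% in Klf13. Over the 8 members it ran from 48% (Klf12) to 78.4% (Klf3). A match describes the letters in the window and no more.

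Scaled by exon length, the factors formed a clear order. The medians over the 10 libraries were 353 CPM per kb for Klf2, 160 for Klf6, 77.7 for Klf13, 40.1 for Klf3, 10.3 for Klf7, 5.37 for Klf4, 5.35 for Klf10, 3.47 for Klf11 and 0.0407 for Klf12. The first 4 places were the same in each of the 5 groups. The ranges over libraries of Klf2 (198 to 434) and Klf6 (147 to 202) met through a single library of Klf2, WT Treg number 1, and the range of Klf10 (3.56 to 7.20) lay inside that of Klf4 (3.07 to 11.8). By group means, Klf4 (11.8 CPM per kb) stood above Klf7 (9.33) in WT Tregs and below it in the other 4 groups, and Klf10 stood above Klf4 (4.50) in KO conventional cells and below it in the other 4. With the length of the longest transcript in place of the summed exons, Klf3 was at 86.3 and Klf10 at 7.35 CPM per kb, and Klf10 then stood above Klf4. Klf7 shares 3196 of its 8131 exon bases with the opposite-strand gene Gm26649, and Klf3 shares 404 of 11243 with Gm20033. The strand setting of the counting is not given in the sources used here, so how reads on the shared bases were assigned is not known.

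**Figure D1:**
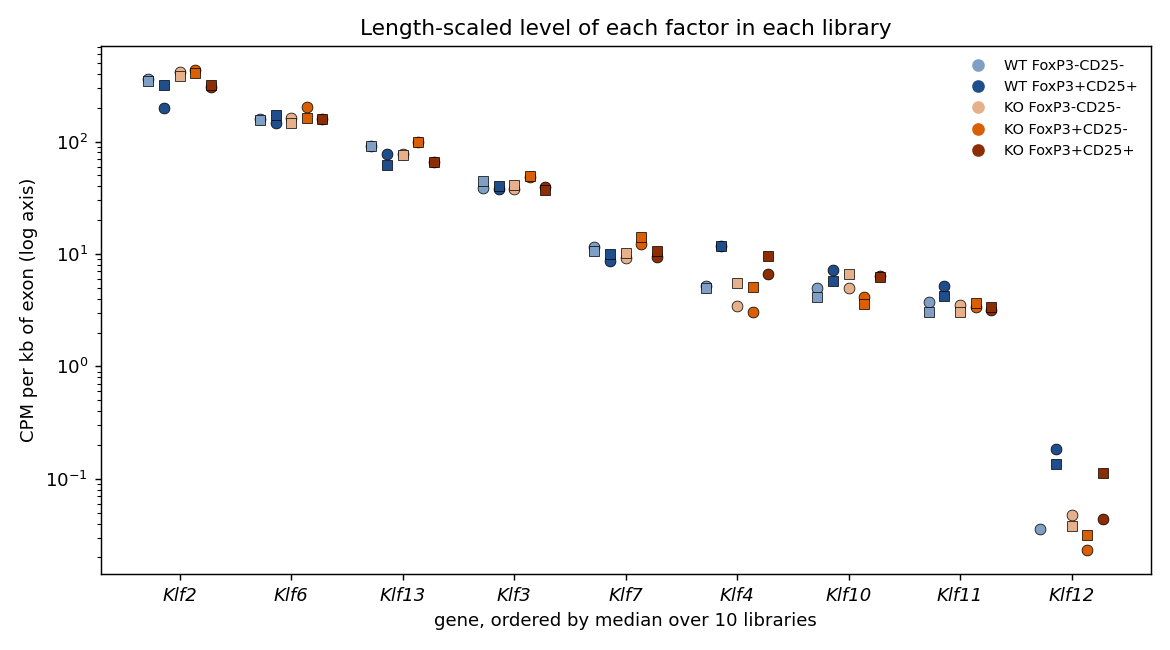
CPM per kb of exon on a log axis for each of the 9 factors, ordered by the median over 10 libraries, with each point 1 library (circle number 1, square number 2) and colours for the 5 groups. Klf2 and Klf6 head the order and Klf12 ends it, with its library at 0 counts not drawn.

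Of the 9 members, 8 passed the filter on low counts and were tested with all 13796 genes by edgeR's quasi-likelihood test with Benjamini-Hochberg adjustment (FDR), a call being FDR under 0.05. Between Tregs and conventional cells of WT mice 1 of 8 members was called, against 10.9% of all genes. At an unadjusted p under 0.05 there were 5 members, against 21.9% of all genes. In KO mice the same comparison called 0 of 8, against 6.34% of all genes, and DESeq2 called 0 members. There 1 member was at an unadjusted p under 0.05, against 16% of all genes. KO FoxP3+CD25- cells gave 1 of 8 against KO Tregs (7.02% of all genes) and 5 of 8 against WT Tregs (11.2%). At p under 0.05 these comparisons held 6 members (18.9% of all genes) and 7 members (23.6%). Against KO conventional cells 0 of 8 were called (1.67%), with 4 members at p under 0.05 (10% of all genes) and 0 by DESeq2. Against WT conventional cells 0 of 8 were called (0.768%), with 0 members at p under 0.05 (8.8% of all genes) and 0 by DESeq2. Comparisons of KO FoxP3+CD25- share their libraries, so these counts are not independent of each other.

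Libraries of one genotype with the same number deviated together and were read as 1 mouse. With the number as a block, the members called were 5 in WT Tregs against conventional cells (Klf2, Klf4, Klf10, Klf11 and Klf13), 1 in the same comparison of KO (Klf4), 2 in KO FoxP3+CD25- against KO conventional cells (Klf7 and Klf13) and 5 in KO FoxP3+CD25- against KO Tregs (Klf3, Klf4, Klf7, Klf10 and Klf13). Over all genes the block raised the calls too, from 1504 to 2634, from 874 to 1650, from 230 to 787 and from 968 to 2090 genes.

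**Figure D2:**
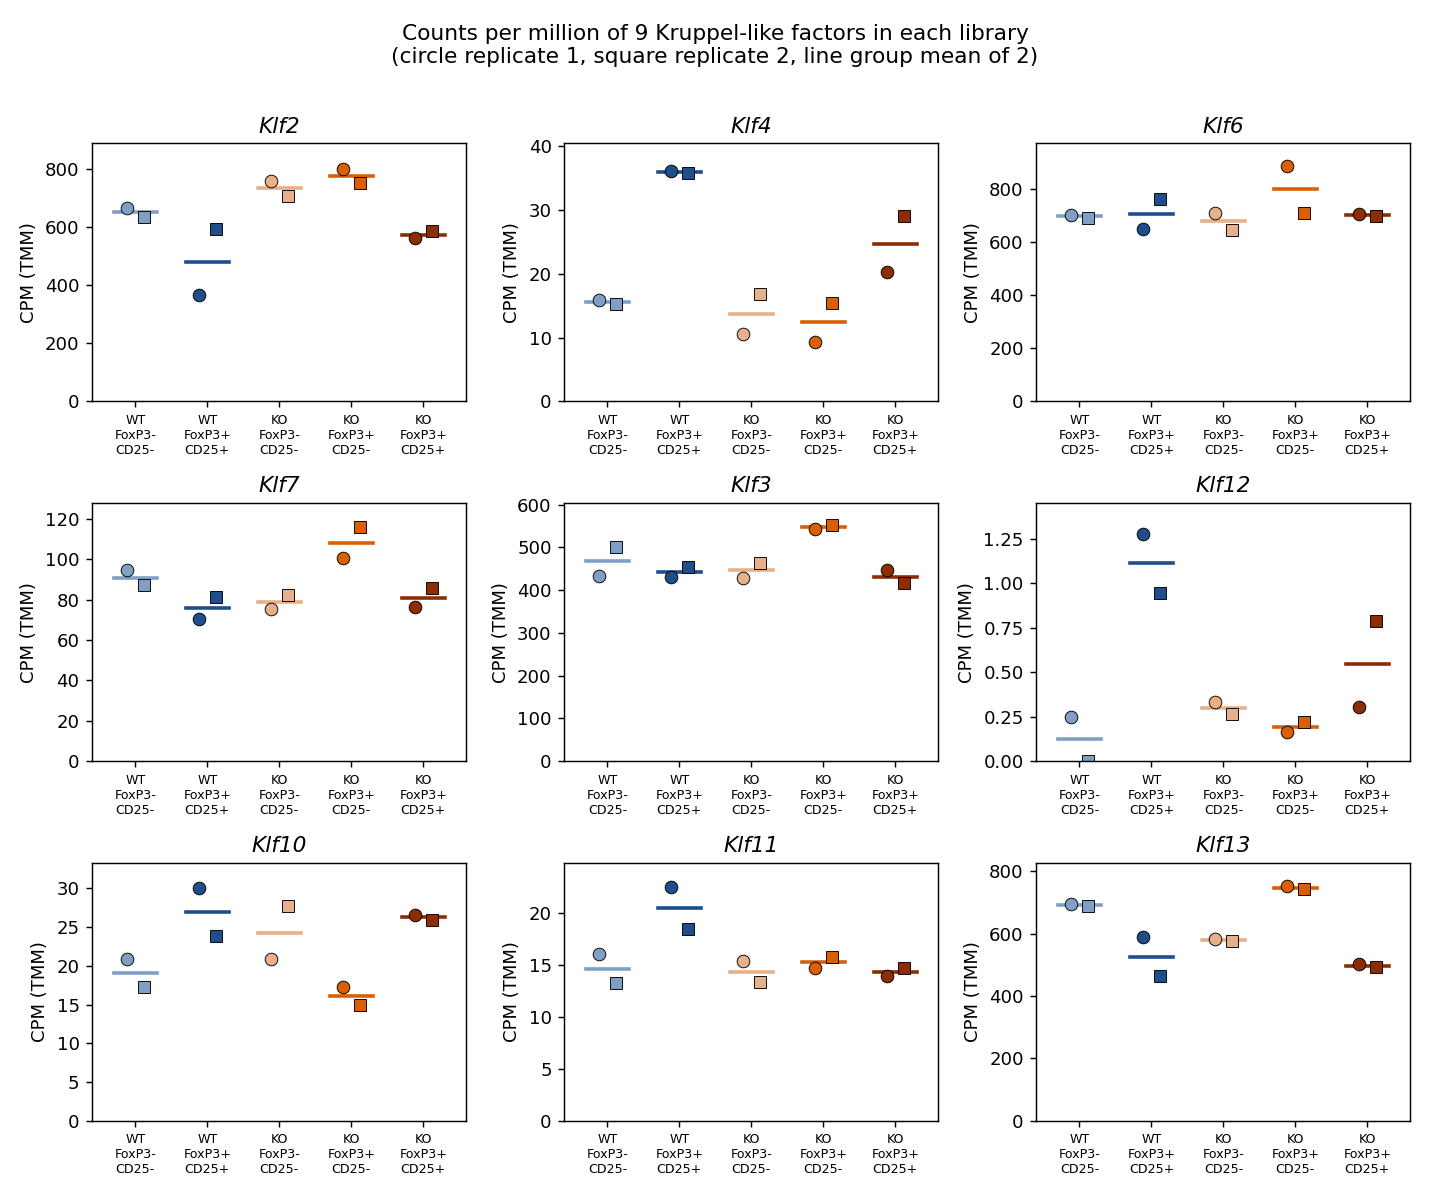
CPM (with TMM factors) of each factor in each of the 10 libraries, by group, with circles for number 1, squares for number 2 and a line at the mean of 2. Klf4 is highest in WT FoxP3+CD25+ cells. Klf3, Klf7 and Klf13 are highest in KO FoxP3+CD25- cells, as are the group means of Klf2 and Klf6.

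Klf4, known for restraining proliferation in T cells and for its use in reprogramming to pluripotency, was the member called between the WT populations. Its level was 36.1 and 35.8 CPM in WT Tregs and 15.9 and 15.3 CPM in WT conventional cells. In KO mice it was 20.3 and 29.1 CPM in Tregs, 9.38 and 15.4 CPM in FoxP3+CD25-, and 10.6 and 16.9 CPM in conventional cells. All 4 Treg libraries thus lay above the other 6. In WT the log2 fold change of Treg over conventional cells was 1.20 (SE 0.25, FDR = 0.00972, edgeR), 2.30-fold, and in KO it was 0.84 (SE 0.27, FDR = 0.117), where the block gave 0.85 and FDR = 0.00258. Within the 4 numbered pairs the difference in log2 CPM was 1.17 and 1.22 in WT and 0.92 and 0.78 in KO. The call in WT was lost without either WT conventional library (FDR = 0.0624 and 0.0772) and without both libraries of WT number 1 (FDR = 0.131), with a log2 fold change of 1.17 to 1.23 in each case. KO FoxP3+CD25- cells were lower than WT Tregs (log2 fold change -1.50, SE 0.26, FDR = 0.00376), which was called in every alternative run, and stood at -0.97 (SE 0.27, FDR = 0.0598; block FDR = 0.000829) against KO Tregs. Against the conventional cells of their own genotype they stood at -0.13, with a 95% confidence interval of -0.77 to 0.50.

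Klf2, the factor of quiescence, ranged 2.19-fold from its lowest to its highest library. It was at 365 and 594 CPM in WT Tregs, at 666 and 637 CPM in WT conventional cells, and in KO at 563 and 587 CPM in Tregs, 802 and 752 CPM in FoxP3+CD25- and 761 and 707 CPM in conventional cells. The Treg libraries were the 4 lowest of the 10, and WT number 1 stood well below its partner. The log2 fold change of Treg over conventional cells was -0.44 in WT (SE 0.18, FDR = 0.178) and -0.35 in KO (SE 0.18, FDR = 0.404). The WT value rested on number 1: the difference within the pair was -0.87 in number 1 and -0.10 in number 2, the block gave FDR = 0.0341, and without both libraries of number 1 the log2 fold change was -0.10 (FDR = 0.813). KO FoxP3+CD25- cells were higher than WT Tregs by 0.69 (SE 0.18, FDR = 0.0323), and by 0.38 (FDR = 0.108) without WT number 1. Over KO Tregs they stood at 0.43 (SE 0.18, FDR = 0.217), and at 0.43 without WT number 1, the only alternative run that called it. Neither group of that comparison is WT, and the block did not call it. Each of 3 single libraries ended the call over WT Tregs when left out (FDR = 0.0878 to 0.141): WT Treg number 1 and KO FoxP3+CD25- numbers 1 and 2.

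Klf6, an activator made in most tissues, had the closest group means of the 9 members, 1.18-fold from lowest to highest. Its level was 648 and 763 CPM in WT Tregs, 703 and 690 in WT conventional cells, 704 and 699 in KO Tregs, 888 and 710 in KO FoxP3+CD25- and 711 and 647 in KO conventional cells. The groups overlapped, apart from KO FoxP3+CD25- number 1, which lay above all others. No comparison reached an unadjusted p under 0.05, and the 95% confidence intervals of the log2 fold change between Tregs and conventional cells were -0.27 to 0.31 in WT and -0.24 to 0.34 in KO.

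Klf7, known for its part in the development of neurons, was at 70.6 and 81.2 CPM in WT Tregs, 94.7 and 87.1 in WT conventional cells, 76.3 and 85.8 in KO Tregs, 101 and 116 in KO FoxP3+CD25- and 75.3 and 82.5 in KO conventional cells. Both KO FoxP3+CD25- libraries lay above the other 8. The log2 fold change of KO FoxP3+CD25- cells was 0.52 over WT Tregs (SE 0.12, FDR = 0.0217), 0.42 over KO Tregs (SE 0.12, FDR = 0.0748; block FDR = 0.0140) and 0.46 over KO conventional cells (SE 0.12, FDR = 0.121; block FDR = 0.0185). The first of these was lost without both libraries of WT number 1 (0.42, FDR = 0.140), without WT Treg number 1 (FDR = 0.120) or without KO FoxP3+CD25- number 2 (FDR = 0.173). The exons it shares with Gm26649 hold for all of these values.

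Klf3, the CtBP-recruiting factor, was also highest in KO FoxP3+CD25- cells, with 543 and 552 CPM. The other groups held 430 and 454 CPM (WT Tregs), 434 and 500 (WT conventional cells), 447 and 416 (KO Tregs) and 429 and 463 (KO conventional cells). KO FoxP3+CD25- lay above all 8 others, by a log2 fold change of 0.34 over KO Tregs (SE 0.11, FDR = 0.0941; block FDR = 0.0145) and of 0.29 over KO conventional cells (SE 0.11, FDR = 0.317; block FDR = 0.0609). The Treg gate itself left Klf3 at -0.08 in WT and -0.05 in KO, with 95% confidence intervals of -0.32 to 0.16 and -0.29 to 0.19.

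Klf12, a repressor of the same type, was near the floor and failed the filter. Its counts ran from 0 to 10 per library, with 8 and 10 in WT Tregs, 2 and 6 in KO Tregs and 0 to 3 in the other 6 libraries. Fitted without a filter, the log2 fold change between the WT populations was 2.86 (SE 0.87, FDR = 0.0502, edgeR), a value that depends on the prior count at such low numbers.

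Klf13, known from activated T cells as a factor that drives the chemokine gene Ccl5, varied little within 4 of the 5 groups. It was at 588 and 464 CPM in WT Tregs, 694 and 690 in WT conventional cells, 501 and 492 in KO Tregs, 751 and 744 in KO FoxP3+CD25- and 583 and 577 in KO conventional cells. In both genotypes the conventional libraries lay above those of Tregs, and KO FoxP3+CD25- lay above all others. KO FoxP3+CD25- cells were higher than KO Tregs (log2 fold change 0.59, SE 0.12, FDR = 0.0123), 1.51-fold, and higher than WT Tregs by 0.51 (SE 0.12, FDR = 0.0190). The first call was lost on leaving out any 1 of the 4 libraries compared, at FDR = 0.0625 to 0.0972 and a log2 fold change of 0.58 to 0.60, and the second without WT Treg number 2 (FDR = 0.0612) or either KO FoxP3+CD25- library (FDR = 0.0894 and 0.0664). Over KO conventional cells they stood at 0.37 (SE 0.12, FDR = 0.222; block FDR = 0.0333), with 0.37 and 0.36 in the numbered pairs. WT Tregs stood at -0.40 against WT conventional cells (SE 0.12, FDR = 0.0602; block FDR = 0.00666), a value that passed with DESeq2 (FDR = 0.0476), with no filter (FDR = 0.0139) and without WT number 1 (-0.57, FDR = 0.0377).

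Klf10, the TGF-beta-inducible factor of the Sin3 type, ran opposite to Klf13. It was at 30.1 and 23.9 CPM in WT Tregs, 20.9 and 17.2 in WT conventional cells, 26.5 and 25.9 in KO Tregs, 17.3 and 14.9 in KO FoxP3+CD25- and 20.8 and 27.7 in KO conventional cells. KO FoxP3+CD25- number 2 was the lowest library, and number 1 lay within the range of WT conventional cells. KO FoxP3+CD25- cells were lower than WT Tregs (log2 fold change -0.75, SE 0.20, FDR = 0.0321), which was lost without WT number 1 (FDR = 0.167) and without WT Treg number 1 or either KO FoxP3+CD25- library (FDR = 0.0762 to 0.218). Against KO Tregs the value was -0.71 (SE 0.20, FDR = 0.0583; block FDR = 0.0138; without WT number 1, FDR = 0.0479). Against KO conventional cells it was -0.61 (SE 0.20, FDR = 0.226), with -0.27 and -0.88 in the numbered pairs, and no alternative run called it. In WT, Tregs stood at 0.49 over conventional cells (SE 0.19, FDR = 0.141; block FDR = 0.0419), and in KO at 0.11, with a 95% confidence interval of -0.32 to 0.53.

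Klf11, its close relative, was at 22.5 and 18.4 CPM in WT Tregs and at 13.2 to 16.1 CPM in the other 8 libraries. The 2 WT Treg libraries thus stood above all others. In WT the log2 fold change over conventional cells was 0.48 (SE 0.18, FDR = 0.137; block FDR = 0.0413), and in KO it was 0.00, with a 95% confidence interval of -0.38 to 0.38. Between genotypes, KO Tregs stood at -0.52 against WT Tregs (SE 0.19, unadjusted p = 0.0188 in edgeR's fit across all genes, not called after adjustment).

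**Figure D3:**
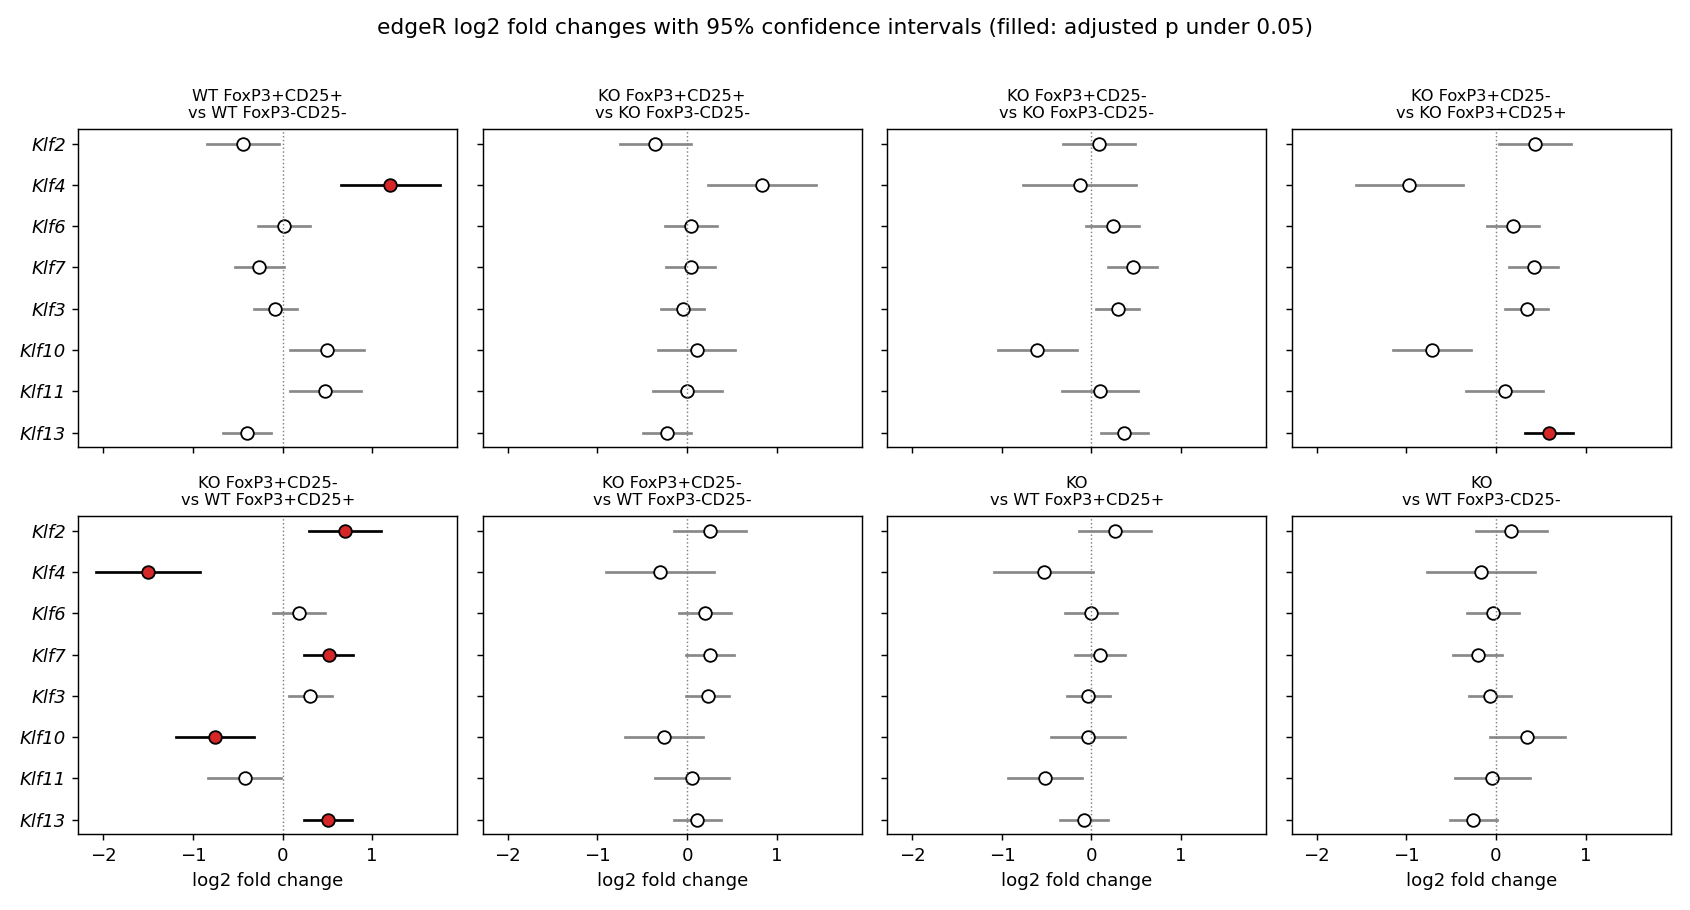
Log2 fold changes of the 8 tested factors in 8 comparisons, with 95% confidence intervals as horizontal bars and filled points where FDR was under 0.05. The 5 filled points of KO FoxP3+CD25- against WT FoxP3+CD25+ cells include Klf4 at -1.50, the farthest from 0.

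The question of what the loss of Satb1 does to these factors is addressed by KO against WT within a gate. No member was called in Tregs (0.00725% of all genes called) or in conventional cells (0.145%), and DESeq2 called 0 members in each. At an unadjusted p under 0.05 there was 1 member in Tregs, against 4.3% of all genes. In conventional cells there were 0 members, against 8.02% of all genes. For Klf2 the 95% confidence interval of the KO over WT log2 fold change was -0.14 to 0.66 in Tregs and -0.23 to 0.57 in conventional cells, and for Klf4 it was -1.08 to 0.01 and -0.77 to 0.43. The Klf2 value in Tregs was 0.26 and turned to -0.05 without WT number 1, and those of Klf10 (-0.04) and Klf13 (-0.08) turned to 0.14 and 0.10. In conventional cells the value nearest to the threshold was that of Klf13, at -0.25 (95% confidence interval -0.52 to 0.01). Over the alternative runs it was -0.27 to -0.24. The narrowest intervals were those of Klf3, -0.27 to 0.20 and -0.30 to 0.17. Whether the KO effect differed between the gates was tested as an interaction, which called 0 of 8 members and 0% of all genes. DESeq2 called 0 members, and 0 members were at p under 0.05, against 4.97% of all genes. The interaction values nearest to the threshold were Klf11 at -0.48 (95% confidence interval -1.06 to 0.11) and Klf7 at 0.30 (-0.09 to 0.69). KO FoxP3+CD25- cells against WT conventional cells gave log2 fold changes of -0.30 for Klf4 to 0.26 for Klf7, all with intervals that held 0.

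**Figure D4:**
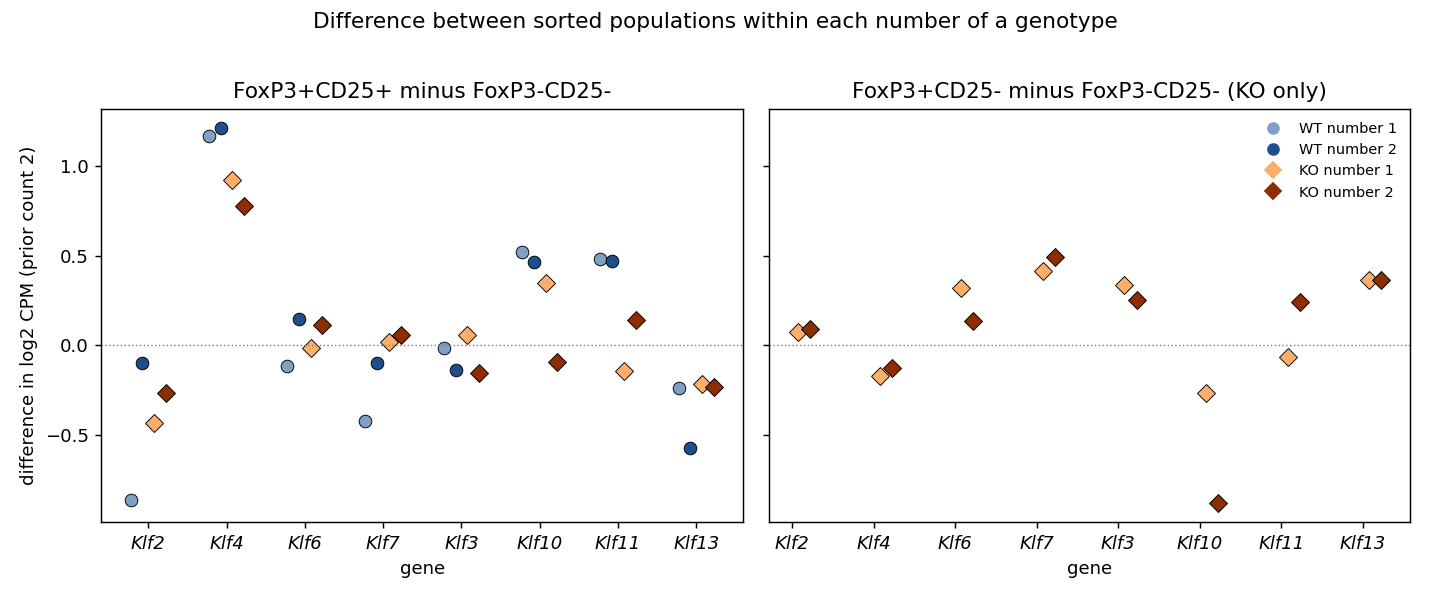
Difference in log2 CPM (prior count 2) between sorted populations within each number of a genotype, circles for WT and diamonds for KO, for 8 factors. Klf4 lies above 0 in all 4 numbers for FoxP3+CD25+ minus FoxP3-CD25-. Klf2, Klf6, Klf7, Klf3 and Klf13 lie above 0 in both KO numbers for FoxP3+CD25- minus FoxP3-CD25-.

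Across the 10 libraries the 8 tested factors fell into sets that moved opposite to each other, given here as a description over libraries that share 5 groups. Klf2, Klf3, Klf6, Klf7 and Klf13 correlated positively with each other, with Pearson r of log2 CPM from 0.26 (Klf6 and Klf13) to 0.76 (Klf3 and Klf7). Klf4, Klf10 and Klf11 did so as well, with r from 0.32 to 0.66. Every r between a gene of the first set and one of the second was negative, from -0.81 (Klf2 with Klf4, and Klf7 with Klf10) to -0.10 (Klf6 with Klf11). The sets do not follow the domain types, since Klf4 stood apart from the other activators and Klf13 apart from Klf10 and Klf11. Summed over the 9 members, the level was 2192 and 2435 CPM in WT Tregs and 2353 and 2349 CPM in KO Tregs. It was 3126 and 2920 CPM in KO FoxP3+CD25- cells and 2536 to 2650 CPM in conventional cells.

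**Figure D5:**
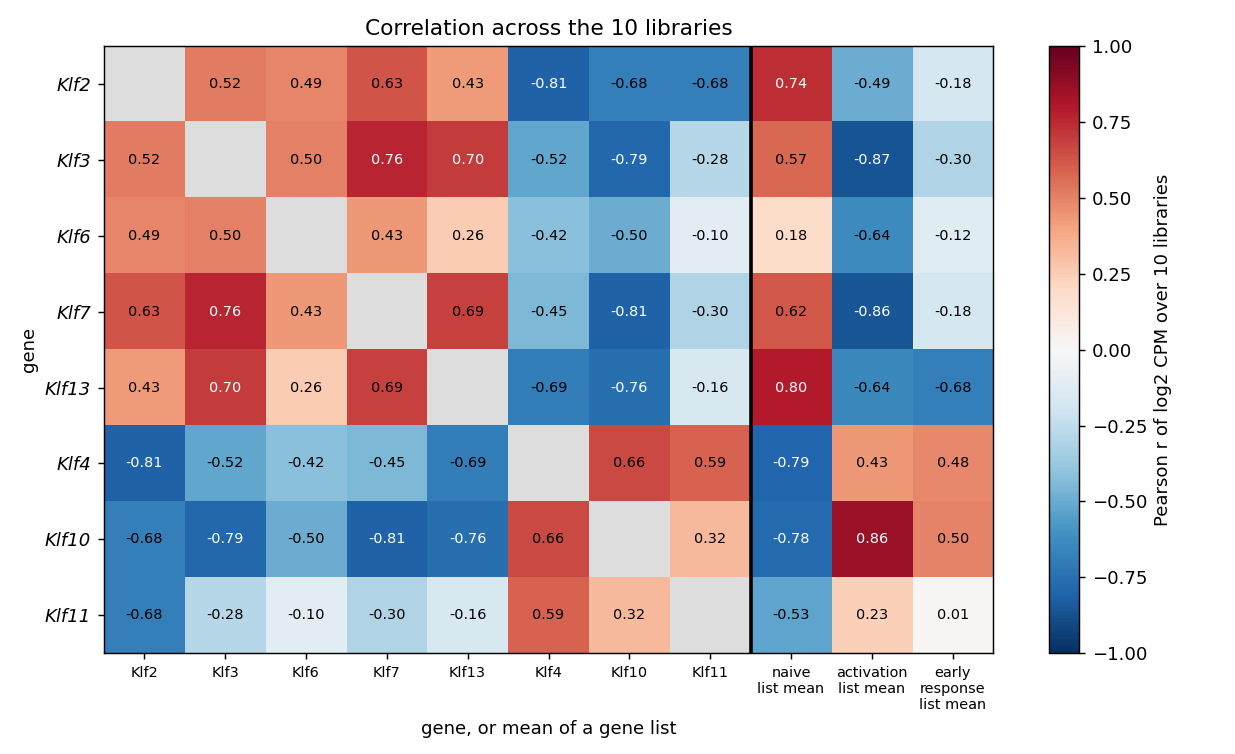
Pearson r of log2 CPM over the 10 libraries between the 8 tested factors, and of each factor with the mean of 3 gene lists, in red above 0 and blue below. Klf2, Klf3, Klf6, Klf7 and Klf13 form a positive block at the upper left, and Klf4, Klf10 and Klf11 are negative against them.

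The genes most like each member over the 10 libraries, the 3 of highest r, were Ten1, Slc30a4 and Slfn2 for Klf2 (r from 0.96 to 0.98), Ttpal, Sema4d and Exoc2 for Klf4 (0.96 to 0.97), and Bcl9l, Gm8995 and Kdm7a for Klf13 (0.97 to 0.98). For Klf10 they were Plxnc1, Icos and Plscr1 (each 0.96), Icos being a costimulatory receptor of activated T cells and Tregs. Klf6 was nearest to Zcchc10, Dmxl1 and Tatdn2 (0.91 to 0.97), Klf7 to Klhl6, Tgtp1 and Rev1 (0.94 to 0.95), Klf11 to Tmed7, Ipo8 and Kif16b (each 0.89), and Klf3 to Csf1r, Ireb2 and Zfp101 (0.92 to 0.95). Csf1r, the receptor of a macrophage growth factor, was at 12.4 to 17.6 CPM.

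Genes that mark the state of the T cell were followed beside the members. A list of 8 genes of naive and recirculating cells had 6 members lower in WT Tregs than conventional cells and 5 lower in KO (median log2 fold change -1.37 and -1.06, against -0.02 over all genes in WT), among them Il7r (-1.53 and -1.23), Lef1 (-1.65 and -0.89) and Tcf7 (-1.20 and -1.22). The mean of its log2 CPM correlated with Klf13 (r = 0.80) and Klf2 (0.74), and negatively with Klf4 (-0.79) and Klf10 (-0.78), and was weakest with Klf6 (0.18). Of 10 genes of activated and memory cells, 7 were lower in KO FoxP3+CD25- than KO conventional cells (median -2.90, with 1.67% of all genes called). Cd44, the adhesion receptor that marks activated and memory cells, stood at -3.17 there (SE 0.22, FDR = 0.000158, edgeR). Against WT conventional cells 3 of the 10 were lower (median -1.48, with 0.768% of all genes called). KO over WT conventional cells had a list median of 0.91, with 0 genes of the list called. That list's mean was 4.28 and 4.19 in KO FoxP3+CD25- cells and 5.10 to 6.53 in the other 8 libraries, and it correlated with Klf10 (r = 0.86), Klf3 (-0.87) and Klf7 (-0.86), and least with Klf11 (0.23). The part of naive and memory cell shares in the values of the members was not tested.

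Several KLFs are themselves early response genes, switched on soon after a stimulus, and 16 other genes of that kind were followed, of which 14 were tested. In Tregs against conventional cells 3 were higher in WT (Dusp1, Egr2 and Fosb) and 2 in KO (Dusp1 and Fosb), with a list median of 0.34 in each. In KO FoxP3+CD25- cells Dusp1, Egr2 and Fosb were lower than in KO Tregs, with Dusp1 at -1.42 and Fosb at -1.57. The mean of the list was 7.18 to 7.98 over all libraries and correlated with Klf13 (r = -0.68), Klf10 (0.50) and Klf4 (0.48), with the other 5 tested members between -0.30 and 0.01, and its part in their values was not tested.

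Markers of other cells were low. The summed level of 5 B cell genes was 5.36 to 34.3 CPM, lowest in KO FoxP3+CD25- cells (6.79 and 5.36). Cd79b was higher in Tregs than conventional cells, with log2 fold changes of 3.86 in WT and 1.83 in KO. Cd22 went the other way in KO, at -1.87 (FDR = 0.00347, edgeR). The sums were 17.6 to 25.1 CPM for 5 myeloid genes, 0.128 to 11.5 for 3 NK genes, 9.38 to 16.6 for Cd8a and Cd8b1 together and 0 to 1.98 for 4 globin genes. Against these stood 2000 to 2514 CPM for Cd3d, Cd3e, Cd3g and Cd4, and 8 Treg genes summed to 3568 to 4594 CPM in Tregs, 748 and 589 in KO FoxP3+CD25- and 232 to 489 CPM in conventional cells.

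Among the other KLFs, 3 of 8 passed the filter (Klf8, Klf9 and Klf16), and Klf15 had no count in any library. Klf9, a Sin3-type factor that answers to glucocorticoids, was between 12.6 and 14.5 CPM in WT Tregs, 7.86 to 8.24 CPM in KO Tregs and 2.37 to 6.96 CPM in the other 6 libraries. It was higher in WT Tregs than WT conventional cells (log2 fold change 1.49, SE 0.36, FDR = 0.0227) and lower in KO FoxP3+CD25- than WT Tregs by -2.34 (SE 0.43, FDR = 0.00485). Of the Sp factors, which compete for the same boxes, 5 of 9 were tested, and Sp6 was higher in Tregs than conventional cells in WT (2.59, SE 0.40, FDR = 0.00163) and in KO (1.96, SE 0.39, FDR = 0.0133). Sp1, Sp2, Sp3 and Sp4 were called in no comparison.

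The genes that act on KLFs or with them moved little. None of the 6 tested of 7 upstream genes (Foxo1, Foxo3 and the ERK5 to MEF2 path known to drive Klf2), of the 7 tested of 8 cofactors (CtBP, Sin3, HDAC and acetyltransferase genes) and of 4 ubiquitin ligase genes of KLF turnover was called in any comparison. Their list medians ran from -0.06 to 0.19 on the log2 scale over all comparisons. Of 9 genes reported as KLF targets, S1pr1 was lower in Tregs than conventional cells in WT (-0.89, SE 0.13, FDR = 0.00144) and KO (-0.59, SE 0.13, FDR = 0.0250), at 383 and 410 CPM against 629 and 837 in WT, and higher in KO FoxP3+CD25- than KO Tregs (0.87, SE 0.13, FDR = 0.00262). Ccr7, the lymph node homing receptor, was lower in WT Tregs (-0.81) and Tgfb1 higher (0.61). Of 8 genes of TGF-beta signalling, Tgfbr1 and Skil were higher in Tregs than conventional cells and Tgfbr2 and Tgfbr3 lower, in both genotypes, with log2 fold changes of 1.53 and 1.10 for Tgfbr1 and -2.07 and -1.45 for Tgfbr3.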

How the data were processed

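The authors sequenced NEBNext Ultra libraries with 50-bp reads, ran HISAT2 (version 2.1.0) against mm10, and took reads per gene from HTSeq (version 0.11.1 in the submitters' processing notes). The deposited values are counts, whole and not normalized, 1 file per library. The 5 HTSeq tallies of unassigned reads were left out, which leaves 26.0% to 28.5% of the reads of a library. The annotation release and the strand setting are not given in the sources used here, and no column of another sample was found.

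Comparisons used edgeR (version 4.0.16) with limma (version 3.58.1) in R (version 4.3.3). The model held all 10 libraries, with 1 mean for each group, after filterByExpr with a minimum count of 10 (13796 genes) and TMM scaling. Tests were two-sided quasi-likelihood F-tests with Benjamini-Hochberg adjustment over all genes tested at FDR 0.05. The script was tested on simulated counts. Levels are CPM with TMM factors, and per kb of GENCODE M21 exons on mm10. DESeq2 (version 1.42.0) and other fits were alternatives. Figures were drawn with matplotlib.

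Replicates are libraries numbered in the labels. The labels imply but do not state that a number is 1 mouse. Deviations from the group means correlated within a number at r = 0.303 in WT and 0.421 to 0.445 in KO, and at -0.0114 to 0.114 between genotypes, so the number was used as a block within a genotype. The main fit held no block, so libraries of the same number counted there as independent. With 2 libraries per group, its p-values rest on a spread estimated over all 5 groups together. They do not measure the spread between mice alone, and counting intervals are not used.

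The members and lists were chosen with earlier results of these data known. Named are all 9 members, their 3 nearest genes by r, genes called from the lists (other KLF and Sp genes, upstream, cofactor, turnover, target, TGF-beta, naive, activation and early response genes), and markers of the sorts and of other cells. A gene of these lists is counted in them but not reported here.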

Additional observations from a re-analysis of the deposited data

How the results depend on the processing

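Counts of members called moved as follows. Between WT Tregs and conventional cells, where the main count was 1, it was 2 with no filter, 2 with DESeq2 and 5 with the replicate block, and 0 to 2 on leaving out 1 library. For KO Tregs against KO conventional cells the block gave 1 instead of 0, and for KO FoxP3+CD25- against KO conventional cells it gave 2 instead of 0. KO FoxP3+CD25- against KO Tregs gave 1, and 2 with no filter, 2 with DESeq2, 2 with the compared libraries only, 5 with the block, 3 without WT number 1 and 0 on leaving out any 1 library. KO FoxP3+CD25- against WT Tregs gave 5, and 1 with the compared libraries only, 6 with the block, 2 without WT number 1 and 1 to 4 on leaving out 1 library. In the other 4 comparisons the count was 0 in each alternative. Of 72 pairs of a member and a comparison, 7 were called, and 0 of these changed direction in any alternative. Of the others, 24 did so in at least 1 alternative, all with a log2 fold change of at most 0.37 in size. RLE in place of TMM factors moved the median of all genes by 0.01 (log2).

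Genes called over the whole table also moved. With no filter they went from 230 to 411 (KO FoxP3+CD25- against KO conventional cells), 1 to 5 (KO against WT Tregs), 20 to 91 (KO against WT conventional cells), 106 to 238 (KO FoxP3+CD25- against WT conventional cells) and 0 to 7 (interaction). DESeq2 gave 353, 5, 103, 204 and 23 there. The replicate block gave 4, 108, 217 and 149 in the last 4, beside the counts given for the other comparisons. In the interaction the block was the number within a genotype. In the other comparisons between genotypes, KO FoxP3+CD25- against WT Tregs among them, it paired libraries of different mice by number alone. With the compared libraries only, 1548 became 926 (KO FoxP3+CD25- against WT Tregs), 20 became 67 and 1 became 0. Without WT number 1, 1504 became 715 (WT Tregs against conventional cells), 1548 became 975, 106 became 42 and 1 became 3. On leaving out 1 library the counts were 828 to 2182 for 1504, 396 to 441 for 874, 30 to 172 for 230, 410 to 562 for 968, 790 to 1981 for 1548, 25 to 57 for 106, 0 to 4 for 20, 1 to 7 for 1 and 0 to 121 for the interaction. Klf12 had 0 to 10 counts a library, and each group 2 libraries.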
